A study of Callithrix jacchus with 3 samples.

Results

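Leukaemia inhibitory factor (LIF) signalling was described through 6 genes of the pathway in 3 RNA-seq libraries of common marmoset (Callithrix jacchus) cells. The genes were LIF, the receptor genes LIFR and IL6ST, the kinase genes JAK1 and JAK2, and the transcription factor gene STAT3. They were chosen by name from a set of 10 symbols, with earlier results of these data known. Each was matched to its Ensembl gene ID in the count tables, which list 30811 genes. The other 4 symbols, SOCS3, PIM1, BCL3 and CISH, could not be matched to a row and are not analysed here. These 4 were the target genes of the set, so the target end of the pathway was read from a wider list of STAT3 targets. CISH was placed not in that list but with the inhibitors of JAK and STAT.

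The libraries form 1 group, labelled as extended pluripotent stem cells and called EPSC-like in the submitters' design text. According to the study's title, they came from attempts to obtain such cells from marmoset embryonic stem cells. In mouse and human, extended pluripotent stem cells are described as giving rise to the embryo proper and to tissues such as the placenta. The labels give no genotype, treatment, medium, passage or donor, and the libraries differ in their titles only by a number, so they may come from a single line. There was no parental line and no control, and nothing states separate cultures. P-values over the 3 libraries thus reflect their own spread, possibly a technical one. Total counts were 52327369, 55224475 and 40593244 in replicates 1, 2 and 3.

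LIF is a secreted cytokine of the interleukin 6 family. It binds LIFR, which pairs with the shared signalling chain gp130, the product of IL6ST. JAK kinases bound to both chains then phosphorylate STAT3, which enters the nucleus and activates target genes, among them SOCS3, whose product inhibits the same kinases. In mouse embryonic stem cells this route maintains self-renewal, whereas conventional primate pluripotent cells are kept mainly by FGF and activin signalling. A medium first described for mouse and human extended pluripotent stem cells contains LIF.

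Taken over the 3 libraries, the cells expressed both receptor chains, both kinases and STAT3, whereas LIF lay below the level used. In replicate 3 alone LIFR stood at 0.907 CPM, with a 95% Poisson interval of 0.639 to 1.25 CPM that includes the level. Against a level of 1 CPM (count per 1000000 counts, scaled with TMM factors), 5 of the 6 genes were above and LIF was below (edgeR quasi-likelihood test with Benjamini-Hochberg adjustment over all genes, threshold 0.05). Over all 23432 genes with at least 1 count, 56% were called above 1 CPM and 37.8% below. Among those with a symbol, 78.3% were above and 16.1% below, so a count of 5 in 6 lies near the background. CPM is not corrected for gene length, so each gene is compared with the fixed level and with itself across libraries, and genes are not ranked against each other.

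LIF, the ligand, had 18 counts in replicate 3, against 26 and 29 counts in replicates 1 and 2. Its level was 0.489 ± 0.044 CPM (SD, n = 3), a log2 level of −1.02 (adjusted p = 0.0082, edgeR). The 95% Poisson intervals, which cover counting error only, were 0.262 to 0.698 CPM in replicate 3, 0.325 to 0.728 CPM in replicate 1 and 0.353 to 0.757 CPM in replicate 2. They overlap, and all end under 1 CPM. No pair of libraries differed by the exact conditional binomial test, which compares the counts of 2 libraries given their totals (adjusted p = 0.977 for replicate 3 against 1, 0.828 for 3 against 2 and 1 for 2 against 1). With so few counts the ratio of replicate 3 to replicate 1 could lie between 0.459 and 1.68. A DESeq2 Wald test did not call LIF below 1 CPM (adjusted p = 0.592).

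LIFR, the ligand-binding receptor chain, was the member with the widest ratio between libraries. It had 37 counts in replicate 3, against 243 and 337 in replicates 1 and 2, or 0.907 CPM against 4.64 and 6.13 CPM. The mean was 3.89 ± 2.69 CPM (SD, n = 3), and the gene was called above 1 CPM (log2 level 1.97, adjusted p = 0.00164, edgeR). In replicate 3 the 95% Poisson interval ran from 0.639 to 1.25 CPM and so includes the level, whereas the intervals of replicates 1 and 2 start at 4.08 and 5.49 CPM. The fitted level was 5.39 CPM without replicate 3, 3.54 CPM without replicate 1 and 2.80 CPM without replicate 2.

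The ratio of replicate 3 to replicate 1 for LIFR was 0.195 (95% interval 0.134 to 0.277, adjusted p = 4.31e-27, exact conditional binomial test). The ratio of replicate 3 to replicate 2 was 0.148 (0.102 to 0.208, adjusted p = 7.31e-43). Of the 13719 genes that averaged 1 CPM or more, 0.394% had a log2 ratio of replicate 3 to replicate 1 as low as that of LIFR or lower. LIFR was also the only member to differ between replicates 2 and 1, being 1.32 times as high in replicate 2 (1.12 to 1.56, adjusted p = 0.0225, exact conditional binomial test). That test called 5.88% of genes averaging 1 CPM or more higher in replicate 2 and 4.72% lower. If both mates of a pair were counted, counts would be inflated, and with halved counts the LIFR difference between replicates 2 and 1 did not pass (adjusted p = 0.503, exact conditional binomial test).

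IL6ST encodes gp130, the chain shared by most receptors of the family. It had 1446 counts in replicate 3, against 3283 and 3339 in replicates 1 and 2. These were 35.5 CPM against 62.8 and 60.7 CPM, with a mean of 52.98 ± 15.2 CPM (SD, n = 3, log2 level 5.73, adjusted p = 1.76e-10, edgeR). Replicates 1 and 2 lay close together, and replicate 3 was lower. Its ratio to replicate 1 was 0.565 (95% interval 0.531 to 0.601, adjusted p = 3.93e-76, exact conditional binomial test), and its ratio to replicate 2 was 0.584 (0.549 to 0.621, adjusted p = 5.80e-68).

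JAK1, which in human and mouse cells is the principal kinase bound to gp130, stood at 33.8 CPM in replicate 3, against 41.0 and 38.8 CPM in replicates 1 and 2, a mean of 37.9 ± 3.67 CPM (SD, n = 3, log2 level 5.24, adjusted p = 2.05e-11, edgeR). Replicate 3 was the lowest library, at 0.825 of replicate 1 (0.771 to 0.883, adjusted p = 1.00e-07, exact conditional binomial test) and 0.872 of replicate 2 (0.814 to 0.933, adjusted p = 0.000224). In the RefSeq annotation of assembly calJac240_pri, JAK1 overlaps RAVER2, a gene for an RNA-binding protein. The strand setting of the counting is not given in the sources used here, so reads from the shared stretch may have been split or dropped. In the same annotation LIFR overlaps the protein-coding gene LOC118151569, and JAK2 overlaps the pseudogenes LOC100405363 and LOC100413969, so the same limit applies to both.

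JAK2, a kinase that also serves the erythropoietin, growth hormone and interferon gamma receptors, stood at 13.98 CPM in replicate 3, against 18.8 and 19.2 CPM in replicates 1 and 2. The mean was 17.3 ± 2.89 CPM (SD, n = 3, log2 level 4.11, adjusted p = 1.35e-09, edgeR). Replicate 3 was again the lowest, at 0.744 of replicate 1 (0.670 to 0.826, adjusted p = 6.64e-08, exact conditional binomial test) and 0.729 of replicate 2 (0.657 to 0.808, adjusted p = 3.97e-09).

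STAT3, the transcription factor that carries the signal to the nucleus, had 2124 counts in replicate 3, against 4956 and 5415 in replicates 1 and 2. Its level was 52.1 CPM in replicate 3, against 94.7 and 98.5 CPM in the other libraries, with a mean of 81.8 ± 25.8 CPM (SD, n = 3, log2 level 6.35, adjusted p = 7.18e-11, edgeR). Replicate 3 held 0.550 of the level in replicate 1 (0.522 to 0.579, adjusted p = 5.86e-124, exact conditional binomial test) and 0.529 of that in replicate 2 (0.503 to 0.556, adjusted p = 7.80e-146). RNA levels say nothing of phosphorylated STAT3, which was not measured.

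**Figure D1:**
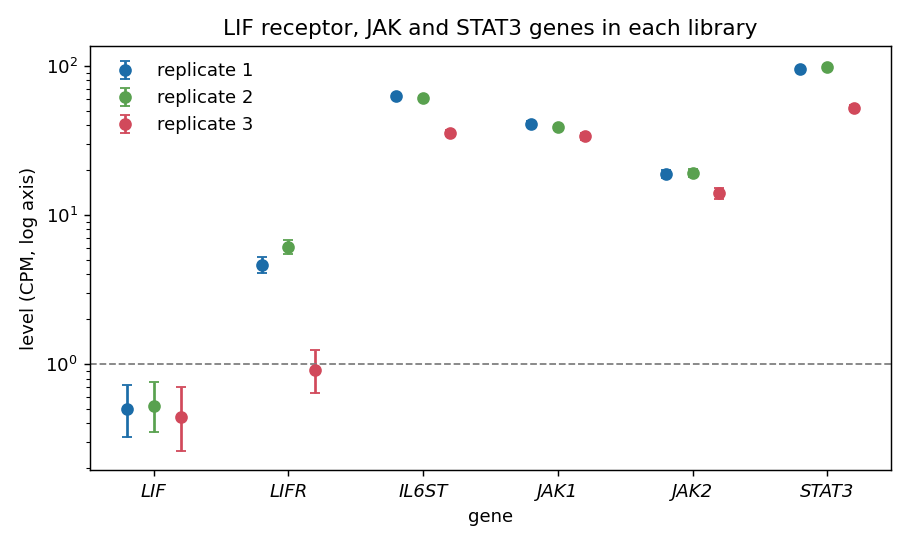
Level of each gene in CPM (log axis) in replicates 1, 2 and 3, with 95% Poisson intervals that cover counting error only and a dashed line at 1 CPM. LIF lies under the line in every library, LIFR lies over it in replicates 1 and 2 and at it in replicate 3, and the others lie over it throughout.

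In all, replicate 3 was lower than both other libraries in 5 of the 6 genes, LIF being the exception that did not pass. LIF averaged under 1 CPM, so the background is set against the other 5. All 5 were lower, against 36.4% of all 13719 genes averaging 1 CPM or more, of which 27.2% were higher in replicate 3 than in both. The filter uses the mean of the 3 libraries, so LIFR, at 0.907 CPM in replicate 3, passed it through replicates 1 and 2. The same filter was applied to the 13719 genes. A drop of at least 1.5-fold from both libraries was seen in 3 of the 5, namely LIFR, IL6ST and STAT3, against 12.7% of those genes. The median log2 ratio of replicate 3 to replicate 1 was −0.82 over the 5 genes and −0.048 over the 13719. To replicate 2 it was −0.78 and −0.050. No list test was made, and with 5 genes these shares are a description of 3 libraries. In bulk RNA, fewer cells of a type and less RNA per cell cannot be told apart.

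Markers of other cell types also differed in replicate 3. The summed level of 8 matched endoderm markers was 11.3 CPM in replicate 3, against 22.6 and 23.1 CPM in replicates 1 and 2, and 4 of the 8 were lower by the test than in each of the other libraries, among them GATA6 with 20 counts against 383 and 443. GATA4, at 3.87 CPM in replicate 3 against 4.13 and 4.62 CPM, passed the test in no pair of libraries. APOA1 and CXCR4 were not lower in replicate 3 by the test either, and AFP had no counts. The summed level of 7 matched trophoblast markers was 13.2 CPM in replicate 3, against 30.8 and 31.6 CPM, with 4 of 7 lower and 1 higher. GATA2 had 28 counts in replicate 3, against 477 and 537, CDX2 had 0 counts against 25 and 29, and CYP19A1 had none in any library. KRT7 was the higher one, at 9.86 CPM in replicate 3 against 7.80 and 8.24 CPM, and made up most of the sum there. All 8 matched fibroblast and mesenchyme markers were lower in replicate 3, with sums of 493 CPM against 718 and 671 CPM. Over all tested genes, 22.2% were lower than in both other libraries, and 36.4% of those averaging 1 CPM or more. Of the markers averaging 1 CPM or more, 3 of 6 for endoderm and 2 of 3 for trophoblast were lower. Among these lower ones GATA6, HNF4A, CER1 and GATA2 lay under 1 CPM in replicate 3. They reached that mean only through replicates 1 and 2, so these counts lend no support to a lower replicate 3. The part of any of these cell types in the lower LIFR, IL6ST and STAT3 levels was not tested.

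All 8 matched markers of pluripotent cells were above 1 CPM, against 78.3% of tested genes with a symbol, but they did not move together. Replicate 3 was lower than both other libraries in 3 of the 8 and higher in 4. The shares over all genes averaging 1 CPM or more were 36.4% and 27.2%. SALL4, a stem cell transcription factor gene, stood at 58.5 CPM in replicate 3, against 135 and 134 CPM in replicates 1 and 2, drops larger than those of IL6ST and STAT3. LIN28A and LIN28B, genes for inhibitors of let-7 maturation, stood at 350 and 470 CPM in replicate 3, against 674 and 742 CPM in replicate 1. POU5F1, which encodes OCT4, was among the higher ones, at 1185 CPM in replicate 3 against 974 and 972 CPM. The list sums were 6418 CPM in replicate 3 and 6504 and 6698 CPM in replicates 1 and 2, of which DNMT3B alone made 2734, 2628 and 2703 CPM. Among 5 matched leukocyte markers the pan-leukocyte gene PTPRC had 0 counts in replicate 3, against 2 and 4, and the list sums were 9.86 CPM against 7.53 and 6.80 CPM. Of the 6 matched neural markers, 4 averaged 1 CPM or more. Among these 4, 2 were lower in replicate 3 than in both other libraries and 1 was higher, against the same shares of 36.4% and 27.2%. MAP2, a neuronal microtubule gene, stood at 1.74 CPM in replicate 3, against 5.28 and 5.98 CPM, and TUBB3 at 120 CPM, against 96.9 and 99.3 CPM. The list sums, carried by NES, were 427 CPM against 461 and 453 CPM.

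Ratios of reads within a library are free of the scaling between libraries. For every 100 reads of IL6ST there were 2.56 reads of LIFR in replicate 3 (95% interval 1.79 to 3.54), against 7.40 (6.47 to 8.43) in replicate 1 and 10.1 (8.996 to 11.3) in replicate 2. LIFR thus fell further than IL6ST in replicate 3, and the intervals do not overlap. OSMR, the other receptor chain that pairs with gp130 for oncostatin M, showed the opposite order, with 8.44 reads per 100 of IL6ST in replicate 3 (6.96 to 10.2), against 4.93 (4.19 to 5.78) and 4.76 (4.04 to 5.58) in replicates 1 and 2. STAT3 and IL6ST kept nearly the same ratio, with 147 reads of STAT3 per 100 of IL6ST in replicate 3 (137 to 157), against 151 (144 to 158) and 162 (155 to 169). JAK2 had 41.3 reads per 100 of JAK1 in replicate 3 (37.4 to 45.6), against 45.8 (42.5 to 49.5) and 49.4 (45.9 to 53.2). The reads carry no molecular identifiers, so the true intervals may be wider.

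**Figure D2:**
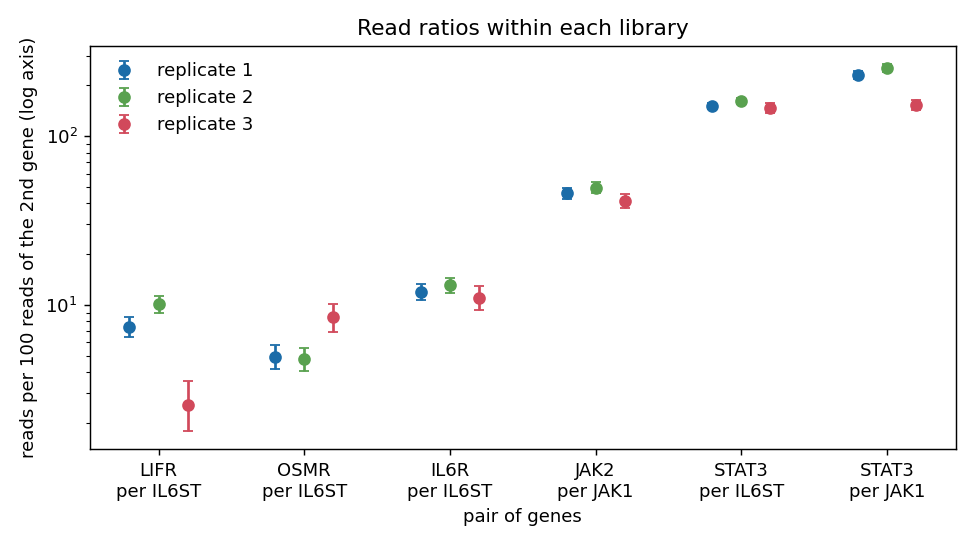
Reads of the first gene per 100 reads of the second (log axis) within replicates 1, 2 and 3, with exact 95% binomial intervals that cover counting error only. LIFR per IL6ST is lowest in replicate 3, OSMR per IL6ST is highest there, and STAT3 per IL6ST lies between 147 and 162 in the 3 libraries.

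The rest of the pathway was read from 7 lists, chosen by gene function with earlier results of these data known. They hold 51 different genes that have a row and are reported, of which 45 are not among the 6. Of those 45, 37 were above 1 CPM, 5 below and 3 not distinguished from it (edgeR quasi-likelihood, adjusted over all genes), against 78.3% of tested genes with a symbol above and 16.1% below. Of the 38 that averaged 1 CPM or more, 15 were lower in replicate 3 than in both other libraries and 4 higher, where the shares over all such genes were 36.4% and 27.2%. The lower ones were thus about as frequent as in the background, and the higher ones less frequent. No list test was made.

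All 4 ligand genes described were below 1 CPM, against 16.1% of tested genes with a symbol. Besides LIF these were IL6, the founding cytokine of the family, at 0.025 ± 0.029 CPM, IL11 at 0.079 ± 0.064 CPM and IL27 at 0.069 ± 0.048 CPM (SD, n = 3). IL6 had 0 counts in replicate 3, against 3 and 1 in replicates 1 and 2. None of the 4 differed between libraries by the exact conditional binomial test, at counts too low to show any but large differences.

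Among receptors, 5 of 7 matched genes were above 1 CPM, against 78.3% of tested genes with a symbol. Apart from IL6ST and LIFR these were IL6R at 6.46 ± 2.21 CPM, the binding chain for interleukin 6, IL27RA at 4.16 ± 0.55 CPM and OSMR at 2.99 ± 0.10 CPM (SD, n = 3). IL6R stood at 3.92 CPM in replicate 3, against 7.51 and 7.95 CPM in replicates 1 and 2, and kept its ratio to IL6ST within counting error, with 11.1 reads per 100 (9.34 to 13.0) against 11.97 (10.8 to 13.3) and 13.1 (11.8 to 14.5). OSMR stood at 2.99 CPM in replicate 3 against 3.10 and 2.89 CPM, and no pair of libraries passed the test. IL31RA, the interleukin 31 receptor chain, had 0 counts in replicate 3, against 4 and 0, and was called below 1 CPM (adjusted p = 0.00611, edgeR). CNTFR, named here after its values were seen, was not distinguished from the level, with 8 counts in replicate 3 against 56 and 44.

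All 3 matched JAK genes were above 1 CPM, where 78.3% of tested genes with a symbol were. TYK2, the third, stood at 17.3 CPM in replicate 3, against 14.8 and 14.9 CPM in replicates 1 and 2, and so was higher in the library in which JAK1 and JAK2 were lower (log2 ratio 0.22 to replicate 1 and 0.21 to replicate 2, adjusted p = 0.0078 and 0.0108, exact conditional binomial test). Of the 6 STAT genes described, 5 were above the level, a count near the same share. STAT6, the interleukin 4 factor, stood at 21.1 ± 1.18 CPM and STAT2, a factor of interferon signalling, at 12.2 ± 3.76 CPM (SD, n = 3). STAT2 stood at 7.82 CPM in replicate 3, against 14.1 and 14.6 CPM in replicates 1 and 2 (adjusted p = 1.49e-18 and 1.54e-21, exact conditional binomial test). STAT4, at 1.13 ± 0.07 CPM and named after its value was seen, was not distinguished from 1 CPM. STAT5A, which RefSeq places beside STAT3, passed the test in no pair of libraries, with 252 counts in replicate 3 against 321 and 317, or 6.18 CPM against 6.14 and 5.76 CPM. For every 100 reads of STAT3 there were 11.9 reads of STAT5A in replicate 3 (10.4 to 13.5), against 6.48 (5.77 to 7.25) and 5.85 (5.21 to 6.56).

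All 12 matched inhibitor genes were above 1 CPM, against 78.3% of tested genes with a symbol. They include the phosphatase genes PTPN2 and PTPN1 at 82.7 ± 3.75 and 53.1 ± 1.78 CPM, and PIAS4, a gene for a SUMO ligase that acts on STAT proteins, at 76.6 ± 3.13 CPM (SD, n = 3). Of the SOCS family, SOCS2, SOCS4, SOCS6 and SOCS7 were measured. SOCS2 passed the test in no pair, at 18.3 CPM in replicate 3 against 17.8 and 17.6 CPM in replicates 1 and 2, while SOCS6 stood at 31.1 CPM in replicate 3 against 45.7 and 48.5 CPM (adjusted p = 3.81e-28 and 4.58e-39, exact conditional binomial test). In the list as a whole, replicate 3 was lower than replicate 1 in 5 of 12 genes and higher in 1, against 39.7% and 30.8% of genes averaging 1 CPM or more.

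The branch from gp130 to ERK and PI3K was represented by 5 matched genes. All were above 1 CPM, where 78.3% of tested genes with a symbol were. The adaptor gene SHC1 stood at 383 ± 3.81 CPM (SD, n = 3) and passed the test in no pair of libraries. PTPN11 encodes the phosphatase SHP2, which binds the same gp130 tyrosine as SOCS3. It stood at 35.8 CPM in replicate 3, against 81.2 and 84.8 CPM in replicates 1 and 2, with log2 ratios of −1.18 to replicate 1 and −1.25 to replicate 2 (adjusted p = 1.16e-177 and 6.79e-205, exact conditional binomial test). SOS1, an activator of RAS, was higher in replicate 3, at 44.2 CPM against 37.7 and 38.6 CPM.

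Of the STAT3 target list, 12 of 14 matched genes were above 1 CPM, against 78.3% of tested genes with a symbol. That count lies near the background. MCL1, a survival gene of the BCL2 family, stood at 249 ± 46.7 CPM, the oxygen-response factor gene HIF1A at 186 ± 49.6 CPM and KLF4, a pluripotency factor gene induced by LIF in mouse embryonic stem cells, at 156 ± 19.4 CPM (SD, n = 3). CEBPD, an acute-phase transcription factor gene, was below the level, with 10 counts in replicate 3 against 36 and 29 (log2 level −1.02, adjusted p = 0.0271, edgeR). GBX2, a LIF-induced gene in mouse embryonic stem cells that is named here after its value was seen, was not distinguished from 1 CPM, at 1.35 CPM in replicate 3 against 0.726 and 0.800 CPM. TFCP2L1, another LIF-responsive gene of naive mouse cells, was above the level at 2.73 ± 0.62 CPM. Its level was 2.01 CPM in replicate 3, against 3.10 and 3.07 CPM in replicates 1 and 2 (adjusted p = 0.00395 and 0.00430, exact conditional binomial test). Many genes of this list have other inputs, MYC and HIF1A among them, so their levels do not measure STAT3 activity.

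Between libraries, the targets moved in both directions. Of the 12 that averaged 1 CPM or more, 6 were lower in replicate 3 than in both other libraries by the exact conditional binomial test and 2 were higher. The shares over all such genes were 36.4% and 27.2%, so these counts lie near the background and are no result about the targets. MCL1 and HIF1A were among the lower ones, at 195 and 129 CPM in replicate 3 against 275 and 212 CPM in replicate 1. KLF5 was among the higher ones, at 30.998 CPM in replicate 3 against 23.0 and 26.2 CPM in replicates 1 and 2. KLF4 stood at 148 CPM in replicate 3, between the 142 CPM of replicate 1 and the 178 CPM of replicate 2. The median log2 ratio of replicate 3 to replicate 1 was −0.18 over the 12 targets.

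**Figure D3:**
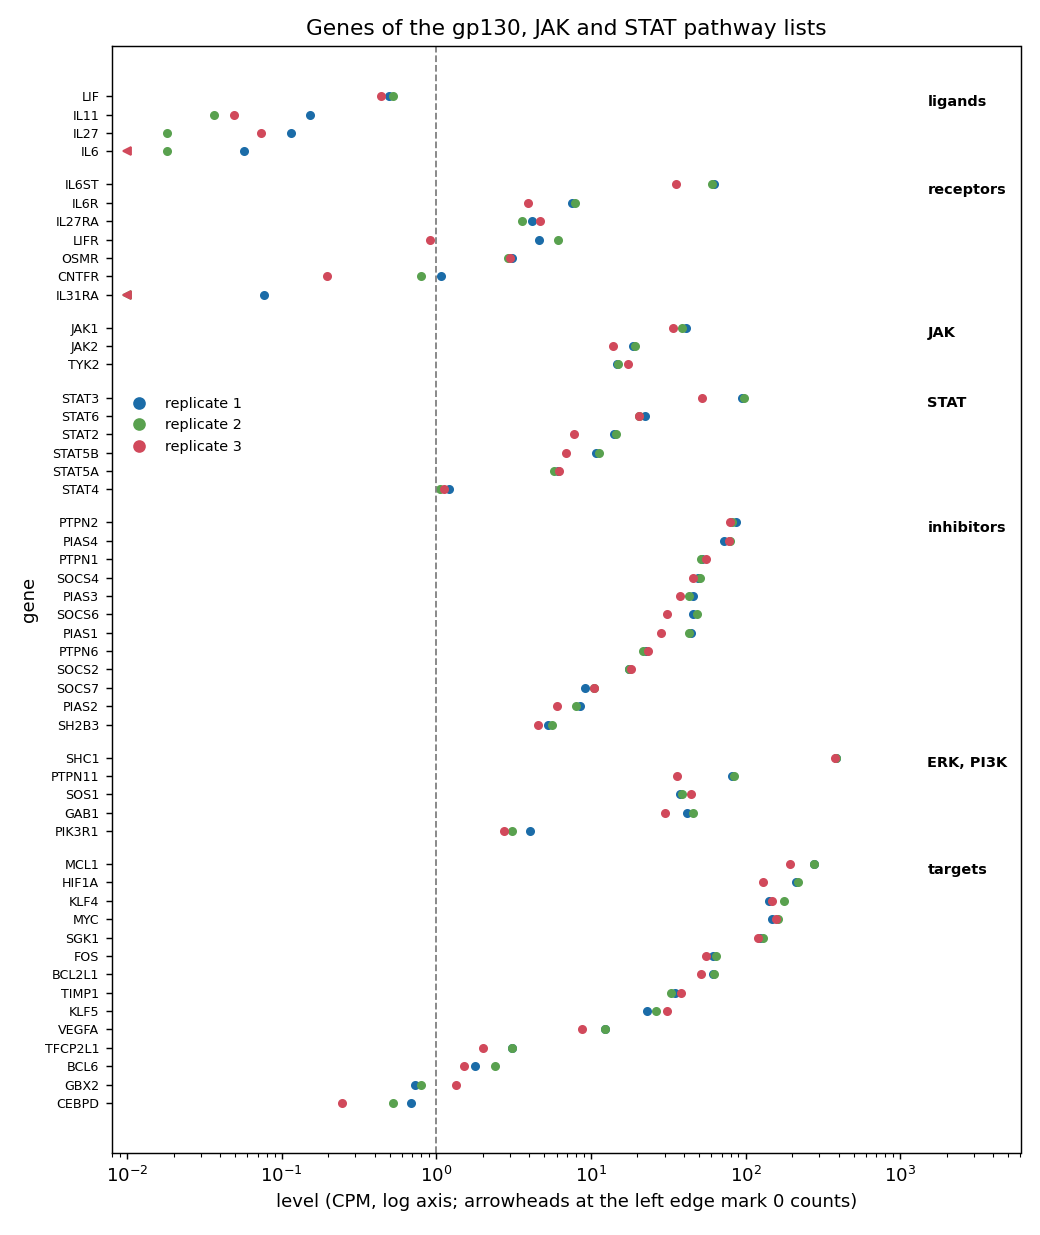
Level in CPM (log axis) of the matched genes of 7 pathway lists in replicates 1, 2 and 3, with a dashed line at 1 CPM. Within a list, genes run by mean CPM, which is not corrected for length, and arrowheads mark 0 counts (IL6 in replicate 3, IL31RA in replicates 2 and 3). The ligands lie left of the line, and 12 of 14 STAT3 targets lie right of it.

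**Figure D4:**
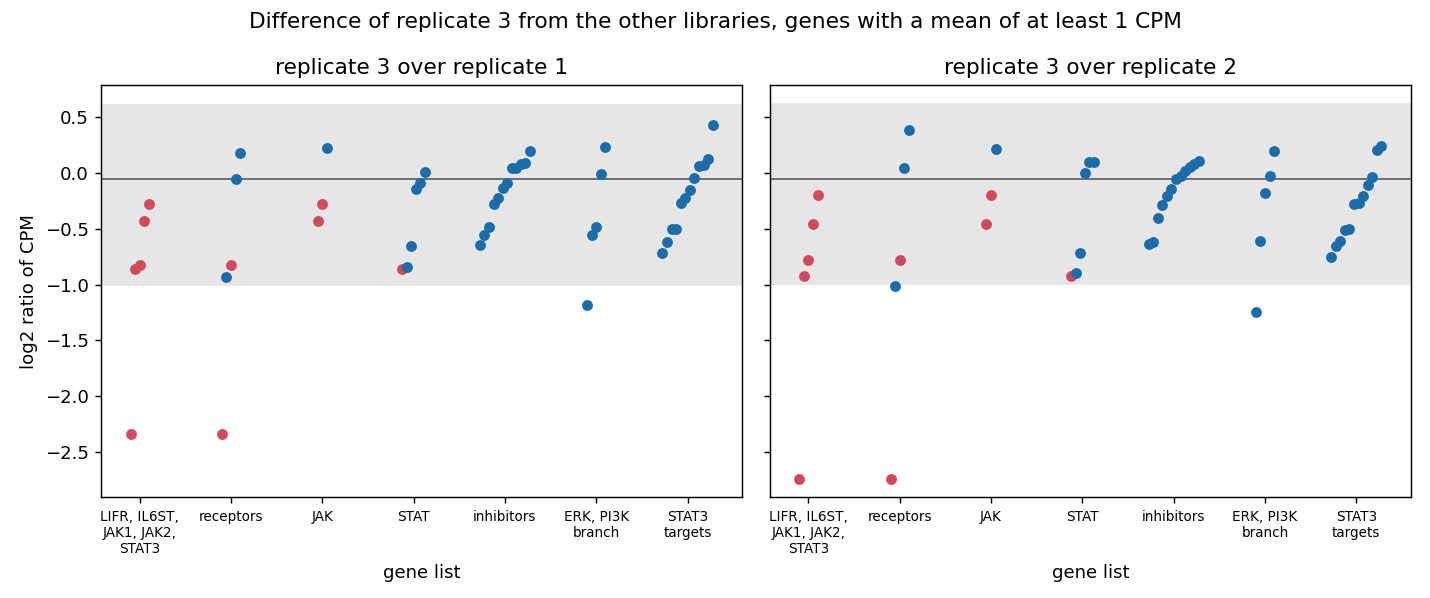
Log2 ratio of CPM in replicate 3 over replicate 1 (left panel) and over replicate 2 (right panel) by list, for genes averaging 1 CPM or more. Red points are LIFR, IL6ST, JAK1, JAK2 and STAT3, blue points the other genes, the grey band spans the 5th to 95th percentile of all 13719 such genes and the line their median. LIFR lies far under the band in both panels, and the targets spread to both sides of the line.

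The genes whose pattern over the 3 libraries was most like that of LIFR were found by the Euclidean distance between log2 CPM deviations from each gene's own mean. Among 9824 other genes with a symbol that averaged 1 CPM or more, 5 lay within 0.25 and 32 within 0.5. The nearest were EOMES (distance 0.19), a T-box factor gene of the early embryo, GC and GABRA2 (each 0.21), CNTN1 (0.22) and DLC1 (0.23). GC encodes the vitamin D binding protein, GABRA2 a GABA receptor subunit, CNTN1 a neural adhesion protein and DLC1 a GTPase-activating protein. EOMES had 19 counts in replicate 3, against 120 and 146 in replicates 1 and 2. With 3 libraries this likeness describes little more than a low replicate 3.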

How the data were processed

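The deposited files give whole-number counts per Ensembl gene ID, with no normalization by the authors. The submitters' processing notes name featureCounts 1.5.2, STAR 2.5.3a and Trim Galore 0.4.0. Not given in the sources used here are the build, annotation release, strand setting and handling of shared reads. Of 30811 IDs, 12660 had a symbol. Members and lists were chosen with earlier results of these data known. Some genes of the lists are not reported here.

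Counts were scaled with TMM in edgeR 4.0.16 (limma 3.58.1, R 4.3.3). All 23432 genes with at least 1 count were tested, two-sided, against 1 CPM in an intercept-only model with trended dispersion, comparing deviances of glmQLFit (prior degrees of freedom 4.68). Pairs of libraries were compared by an exact conditional binomial test (the smaller tail doubled), which covers counting error and no conditions. Both were adjusted by Benjamini-Hochberg and tested on simulated data. The simulated counts for the pair test held counting error only, so they cannot show how it behaves under a wider spread. Log2 ratios had 0.5 added to counts. A count of 0 allows up to 3 counts, or 0.0543 to 0.0739 CPM before TMM scaling. DESeq2 1.42.0 served as an alternative. The text names all matched members and, of each list, the 2 or 3 of highest mean CPM above the level and each below it. Other named genes were chosen after their values were seen. Figures used matplotlib 3.10.9 in Python 3.11.15.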

Additional observations from a re-analysis of the deposited data

How the results depend on the processing

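The 5 genes called above 1 CPM stayed 5 under each of 11 settings tried: DESeq2 size factors, library totals, the DESeq2 Wald test, both filters on low counts, levels of 0.5 and 2 CPM, leaving out each replicate, and replicates 1 and 2 summed. The count below the level was 1, and 0 with the DESeq2 Wald test and with a level of 0.5 CPM. The DESeq2 Wald test called 1608 of all genes below 1 CPM, against 8851 by edgeR. LIF stayed below without each replicate, at log2 levels of −1.08 to −0.96 (adjusted p up to 0.0492, without replicate 1, edgeR), in fits on 2 libraries that take the spread from the trend alone. Of the 5 genes lower in replicate 3 than in replicate 1, 3 stayed when a 1.5-fold difference was required, and likewise 3 of 5 against replicate 2. JAK1 and JAK2 were the genes lost. The 1 gene higher in replicate 2 than in replicate 1, LIFR, gave a count of 0 with halved counts and with a 1.5-fold difference required. No result changed direction. No paired analysis was possible because the labels give a single group. Values per kilobase could not be had without transcript lengths.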

Other observations

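Genes next to the 6 in the RefSeq annotation of assembly calJac240_pri differed in how they varied. EGFLAM, a gene for an extracellular matrix protein beside LIFR, had 200 counts in replicate 3, against 632 and 636 in replicates 1 and 2, with log2 ratios of −1.30 and −1.24 (adjusted p = 3.17e-31 and 2.57e-28, exact conditional binomial test). OSMR, on the other side of LIFR, did not differ between libraries by that test. For every 100 reads of EGFLAM there were 18.5 reads of LIFR in replicate 3 (95% interval 12.7 to 26.4), against 38.4 (33.0 to 44.7) and 53.0 (46.3 to 60.6). RAVER2, which overlaps JAK1, stood at 37.3 CPM in replicate 3, against 49.2 and 50.1 CPM. RCL1, a gene beside JAK2 that acts in ribosomal RNA processing, stood at 86.2 CPM in replicate 3, against 81.8 and 81.3 CPM, while JAK2 was lower there. INSL6, on the other side of JAK2, HORMAD2 beside LIF, and ANKRD55 and IL31RA on either side of IL6ST were below 1 CPM (edgeR quasi-likelihood, adjusted over all genes).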
